A study of Mus musculus with 144 samples.

Results

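Toll-like receptors are pattern receptors of innate immune cells, and the genes described here encode 5 of them, their accessory proteins and their main adaptor. The set holds Tlr2, Tlr3, Tlr4, Tlr7, Tlr13, Cd14, Ly86, Ly96, Cd180 and Myd88, chosen by gene symbol, which makes 10 of the 55364 genes in the deposited table. All 10 symbols were found in the table. They were measured as messenger RNA in single retinal microglia, the resident macrophages of the retina. Cells were sorted by green fluorescence from C57BL/6 mice carrying an Iba1-EGFP transgene, which marks microglia and also other macrophages, at 20 to 22 months of age. The transgene and the age were common to all groups. By sample title, 54 wells came from retinas whose optic nerve was not crushed, 36 from retinas 2 days after optic nerve crush and 54 from retinas 4 days after it.

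Receptors at the cell surface bind bacterial lipids and lipoproteins, while receptors in endosomes bind nucleic acids. Most of them signal through the adaptor MyD88 to kinases that activate NF-kB and interferon regulatory factors, which switch on cytokine and chemokine genes. Microglia are known to express many of these receptors, with the accessory proteins that load or restrain them.

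Each well was sorted to hold 1 cell, and the wells filled 3 plates of 48. The labels name no animals. Wells of a group were therefore treated as cells of 1 sample, and no test, standard error or p-value is given. The SD describes spread over wells. Intervals beside shares are 95% Clopper-Pearson and reflect how many wells were counted, nothing else. On every plate the groups sat in separate rows, so group and row cannot be told apart. For 18 wells on plate 1 the title says day 4 and the treatment tag says day 2; the title was followed.

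Reads recovered from the FPKM values separated 88 deep wells, with 60079 to 8065064 reads, from 56 shallow wells with 643 to 14205. Of the deep wells, 39 were uncrushed, 25 day 2 and 24 day 4, and plate 3 had only 2 day 4 wells among them. Below, 3 values in a row stand for uncrushed retina, day 2 and day 4. The median deep well had a read of 3161, 3777 and 4992 genes. At least 3 of 11 microglia markers were held in 35, 21 and 21 of the deep wells. The microglia markers P2ry12, Tmem119 and Cx3cr1 were among those listed, and none of the 11 was at 0 in any group. Summed monocyte and perivascular macrophage markers had medians of at most 4.29 reads per 1000000 in any group. They reached 1000 in 2, 6 and 2 deep wells, and all 6 of day 2 and 1 of day 4 were among the neutrophil-rich wells described next. The highest, a day 4 well of plate 1 with 4 microglia markers, had 60966 for monocyte and 4665 for perivascular macrophage markers. At least 5 of 12 neutrophil markers were held in 9 deep wells, of which 1 was uncrushed, 6 were day 2 and 2 day 4. Their summed neutrophil markers ran from 11473 to 111740 reads per 1000000, against at most 2152 in the other 79 deep wells. These neutrophil-rich wells held a median of 1 microglia marker, and results that rest on them are given with and without them. Among the 12 neutrophil markers, Ngp, Camp and Ltf were at 0 in the deep wells of every group. A neutrophil-rich day 2 well of plate 1 also held 13 rod photoreceptor markers, at 73971 reads per 1000000, and 7 microglia markers. A neutrophil-rich day 4 well of plate 1 held 12 rod markers, at 102149 reads per 1000000.

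A gene is called held in a well at 10 or more recovered reads. Levels are log2(FPKM + 1), where FPKM is scaled to gene length and to the reads of the well. In the 39 uncrushed deep wells the highest mean level was that of Ly86 at 6.67 ± 3.68 (SD over wells), followed by Cd14 at 3.44 ± 3.99. The other 8 genes had mean levels of 1.27 or below. Ly86 and Cd14 led in the same order at day 2, with means of 7.93 and 4.58, and at day 4, with means of 7.40 and 4.63. Tlr2 had rank 5 in uncrushed retina and rank 3 at day 4. None of the gaps between neighbours in these orders exceeded the SD over wells of either neighbour; the widest, 3.34 between Ly86 and Cd14 at day 2, stood beside SDs of 3.46 and 4.30.

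**Figure D1:**
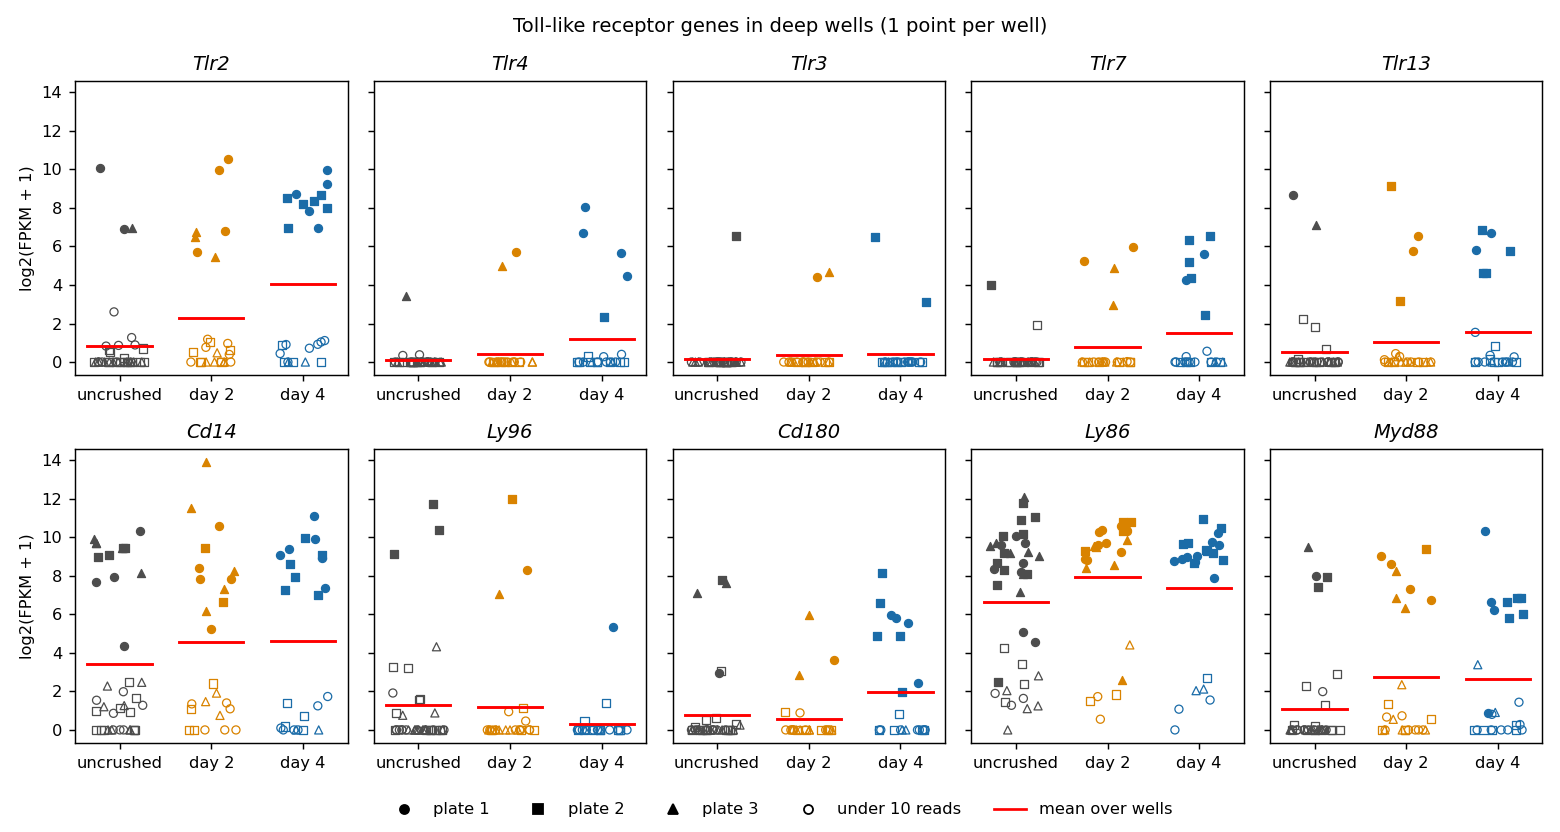
Level of each gene as log2(FPKM + 1) in every deep well of uncrushed retina (39 wells), day 2 (25) and day 4 (24); filled symbols are wells with 10 or more reads of the gene, open symbols wells with fewer, symbol shape gives the plate and the red line the mean. Most wells lie at or near 0 for 9 of the 10 genes and a minority lies far above, while Ly86 is held by 65 of 88 wells.

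Tlr2 encodes the surface receptor for bacterial lipoproteins, which pairs with TLR1 or TLR6 (ENSMUSG00000027995, GRCm38 chromosome 3, 83836272 to 83841767, minus strand). Of the deep wells, 3 of 39 held it in uncrushed retina (7.69%, 95% interval 1.62 to 20.9), 7 of 25 on day 2 (28%, 12.1 to 49.4) and 11 of 24 on day 4 (45.8%, 25.6 to 67.2). The intervals of uncrushed and day 4 wells did not overlap, which is no test, and such gaps were not counted for genes in general. The share was higher at day 4 for 82.5% of genes measured. Over all deep wells, FPKM ran from 0 to 1071 with a median of 0 in uncrushed retina, from 0 to 1493 with a median of 0.413 at day 2 and from 0 to 1015 with a median of 1.11 at day 4. The ranges thus overlapped fully, and the groups differed in how many wells were high. In the wells that held it, the median FPKM was 123, 108 and 328. The mean level was 0.83 ± 2.19, 2.31 ± 3.41 and 4.06 ± 4.05.

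Tlr2 was 3.23 higher at day 4 than in uncrushed retina on the log2(FPKM + 1) scale, the widest difference in the set. Within plates the difference was 1.86 on plate 1, 4.82 on plate 2 and -0.54 on plate 3, where both day 4 deep wells had 0 reads of it. On plate 2 it was held by 0 of 15 uncrushed, 0 of 6 day 2 and 6 of 10 day 4 deep wells. Neutrophils are known to express Tlr2, and it was held by 4 of the 9 neutrophil-rich wells. Among these 4 was the day 2 well with 13 rod markers, at an FPKM of 110. Without the neutrophil-rich wells Tlr2 was held by 2 of 38, 5 of 19 and 10 of 22, and the day 4 difference was 3.44. After every deep well was thinned to 50000 reads, 4, 8 and 12 wells had a read of Tlr2.

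The stretches of promoter outside annotated exons are shown for Tlr2 and for Myd88, the adaptor gene that many Tlr2 wells also held, since both genes are known NF-kB or interferon pathway members. They are given 5′ to 3′ on the gene's strand, from RefSeq on GRCm38.p6. Capitals mark a match to GGGANNNNCC, a letter pattern of NF-kB sites, in Tlr2, and to GAAANNGAAA, a letter pattern of interferon response elements, in Myd88.
Tlr2 (chr3:83841768-83841858, minus strand): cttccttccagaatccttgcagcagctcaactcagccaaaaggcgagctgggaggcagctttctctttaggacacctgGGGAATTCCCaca
Myd88 (chr9:119340042-119340268, minus strand): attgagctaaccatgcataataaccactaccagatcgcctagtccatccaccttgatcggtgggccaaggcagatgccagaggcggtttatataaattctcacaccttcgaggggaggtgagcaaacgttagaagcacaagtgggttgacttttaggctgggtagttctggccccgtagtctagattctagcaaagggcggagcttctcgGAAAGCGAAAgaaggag
The Tlr2 match begins at -172 and the Myd88 match at -40, counted from the RefSeq start. Over the 300 bases searched, GGGANNNNCC also matched Tlr2 at -8 and Tlr3 at -211, -23 and -9. So the pattern was not particular to Tlr2. GAGGAA, a letter pattern of PU.1 sites, matched Tlr13 at -83, and TGANTCA, one of AP-1 sites, matched no member. On both strands, 20.7% of 32851 RefSeq windows of 300 bases hold GGGANNNNCC and 3.44% hold GAAANNGAAA. GAGGAA is held by 28.3% of these windows and TGANTCA by 7.81%. A match describes letters only, and binding was not measured. Promoter entries were matched for 6 of the 10 genes: Tlr2, Tlr3, Tlr13, Ly86, Cd180 and Myd88.

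Tlr4 encodes the surface receptor for bacterial lipopolysaccharide (ENSMUSG00000039005, chromosome 4, 66827584 to 66930284, plus strand). Tlr4 was held by 1 of 39 (2.56%, 0.0649 to 13.5), 2 of 25 (8%, 0.984 to 26.03) and 5 of 24 deep wells (20.8%, 7.13 to 42.2). The uncrushed well had an FPKM of 9.81, the day 2 wells 30.6 and 51.2, and the day 4 wells 4.14, 21.05, 49.8, 102 and 265. Every other deep well had at most 3 reads, so a few wells carried the whole level. The day 4 well with 102 was the one highest in monocyte markers. Without the deep wells at 1000 or more reads per 1000000 of monocyte or perivascular macrophage markers, the day 4 difference of Tlr4 given next was 0.87. The mean level was 0.11 ± 0.55, 0.43 ± 1.48 and 1.17 ± 2.42. The day 4 difference from uncrushed retina was 1.07 over all plates, 2.06 on plate 1, 0.27 on plate 2 and -0.26 on plate 3. Of the day 4 wells that held Tlr4, 4 lay on plate 1, whose day 4 wells are those with the day 2 tag. Without plate 1 the day 4 difference was 0.10, and with those wells grouped by their tag it was 0.11 at day 4 and 0.87 at day 2.

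Tlr3 encodes the endosomal receptor for double-stranded RNA, which signals through TRIF and not MyD88 (ENSMUSG00000031639, chromosome 8, 45395665 to 45411080, minus strand). It was the least often held of the 10 genes over all deep wells, in 5 of 88. These were 1 uncrushed well with an FPKM of 92.9, day 2 wells with 20.2 and 24.9, and day 4 wells with 7.65 and 88.1. All remaining deep wells had 0 reads of it. Its exons share positions with those of Gm45542 on the opposite strand, and the libraries do not mark strand, so reads there cannot be told apart. Differences were 0.20 at day 2 and 0.23 at day 4, and turned to -0.07 and -0.27 once centred on the median of all genes.

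Tlr7, on the X chromosome, encodes the endosomal receptor for single-stranded RNA (ENSMUSG00000044583, 167304929 to 167330558, minus strand). Its transcripts were held by 1 of 39 (2.56%, 0.0649 to 13.5), 4 of 25 (16%, 4.54 to 36.1) and 7 of 24 deep wells (29.2%, 12.6 to 51.1). The uncrushed well had an FPKM of 15.3. The day 2 wells had 6.79, 28.6, 37.02 and 62.0, and the day 4 wells ran from 4.52 to 91.0 with a median of 35.6. Levels in wells that held it thus overlapped, and the number of such wells differed. The day 4 difference of 1.33 was 0.89 on plate 1, 2.09 on plate 2 and 0.00 on plate 3.

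Tlr13, also X-linked, encodes an endosomal receptor for bacterial ribosomal RNA that humans lack (ENSMUSG00000033777, 106143204 to 106160493, plus strand). Deep wells that held it numbered 2 of 39 (5.13%, 0.627 to 17.3), 4 of 25 (16%, 4.54 to 36.1) and 6 of 24 (25%, 9.77 to 46.7). The uncrushed wells had FPKM of 135 and 411, the day 2 wells 7.97, 53.2, 93.5 and 554, and the day 4 wells 23.8 to 116 with a median of 54.1. The highest levels therefore lay outside day 4. Of the 4 day 2 wells, 3 were neutrophil-rich, and without them Tlr13 was held by 1 of 19 day 2 wells. The day 2 difference was 0.50 with those wells and -0.15 without them. The day 4 difference of 1.04 was 0.43, 1.96 and -0.55 on plates 1 to 3.

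Cd14 encodes the surface protein that hands lipopolysaccharide to the TLR4 complex and also assists TLR2 (ENSMUSG00000051439, chromosome 18, minus strand). Cd14 was held by 13 of 39 (33.3%, 19.1 to 50.2), 12 of 25 (48%, 27.8 to 68.7) and 12 of 24 deep wells (50%, 29.1 to 70.9). Its FPKM ran from 0 to 1270 with a median of 1.43 in uncrushed retina, from 0 to 15256 with a median of 4.32 at day 2 and from 0 to 2187 with a median of 66.0 at day 4. The day 4 maximum was the well highest in monocyte markers. The 3 intervals overlapped, as did the ranges. Another 27 deep wells had 1 to 7 reads of Cd14. In wells that held it the median FPKM was 689, 268 and 506, lowest at day 2. The neutrophil-rich wells held it in 6 of 9 cases, and the day 2 difference of 1.14 was 0.64 without them. The day 4 difference of 1.18 was 1.63, 2.28 and -4.16 on plates 1 to 3, 0.45 without plate 2 and 1.13 without the wells at 1000 or more monocyte or perivascular macrophage reads per 1000000.

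Ly96 encodes the lipopolysaccharide-binding partner of TLR4 (ENSMUSG00000025779, chromosome 1, 16688051 to 16709611, plus strand). Few deep wells held it: 3 of 39 (7.69%, 1.62 to 20.9), 3 of 25 (12%, 2.55 to 31.2) and 1 of 24 (4.17%, 0.105 to 21.1). The uncrushed wells, all on plate 2, had FPKM of 567, 1337 and 3443. The day 2 wells had 132, 320 and 4060, and the day 4 well had 39.9 from 31 reads. Ly96 was thus the only member less often held at day 4 than in uncrushed retina, by intervals that overlap. The difference was -0.98 over all deep wells, with 0.27 on plate 1, -2.61 on plate 2 and -0.46 on plate 3, and 0.05 without plate 2.

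Cd180 encodes a receptor-like protein that dampens TLR4 signalling in macrophages (ENSMUSG00000021624, chromosome 13, 102693558 to 102739629, plus strand). Cd180 was held by 4 of 39 (10.3%, 2.87 to 24.2), 3 of 25 (12%, 2.55 to 31.2) and 9 of 24 deep wells (37.5%, 18.8 to 59.4). The uncrushed wells had FPKM of 6.63, 138, 199 and 221, the day 2 wells 6.14, 11.5 and 60.7, and the day 4 wells 2.98 to 283 with a median of 46.5. More wells held it at day 4, at levels inside the uncrushed range but for 1 above and 2 below it. The difference was -0.21 at day 2 and 1.18 at day 4. Within plates the day 4 difference was 1.38, 1.90 and -1.15. Its exons overlap Mast4 exons on the opposite strand, and reads there cannot be told apart.

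Ly86 encodes the secreted partner that CD180 needs at the cell surface (ENSMUSG00000021423, chromosome 13, 37345208 to 37419036, plus strand). Ly86 was held by 27 of 39 (69.2%, 52.4 to 83.0), 20 of 25 (80%, 59.3 to 93.2) and 18 of 24 deep wells (75%, 53.3 to 90.2), the most of any member. FPKM ran from 0 to 4434 with a median of 291 in uncrushed retina, from 0.470 to 1767 with a median of 711 at day 2 and from 0 to 1965 with a median of 483 at day 4. Groups overlapped up to the day 2 maximum, and 3 uncrushed wells, at 2138, 3526 and 4434, lay above every well after crush. Of the deep wells that did not hold Ly86, 21 had between 1 and 9 reads, so 38 of 39, 25 of 25 and 23 of 24 deep wells had a read of it. Of the 9 neutrophil-rich wells, 2 held Ly86 and 7 reached FPKM 1. Without them it was held by 27 of 38, 18 of 19 and 18 of 22 deep wells. The day 2 difference was 1.26 with them and 2.72 without.

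Myd88 encodes the adaptor for every receptor of the set except TLR3 (ENSMUSG00000032508, chromosome 9, 119335934 to 119341411, minus strand). Deep wells with Myd88 numbered 4 of 39 (10.3%, 2.87 to 24.2), 8 of 25 (32%, 14.9 to 53.5) and 9 of 24 (37.5%, 18.8 to 59.4). The uncrushed wells had FPKM of 168, 242, 252 and 721, the day 2 wells ran from 78.7 to 684 with a median of 231, and the day 4 wells from 0.847 to 1290 with a median of 98.2. Wells with Myd88 after crush were thus more numerous and their medians were lower. The lowest, at 17.5 reads, came from a well of 8023480 reads. The differences were 1.68 at day 2 and 1.57 at day 4. Myd88 was the only member with day 4 differences above 1 on each plate, 1.31, 1.75 and 1.42, though on plate 3 these rested on 1 and 2 reads. Of the 8 day 2 wells with Myd88, 4 were neutrophil-rich, and the day 2 difference was 0.95 without such wells. Its exons overlap Acaa1a exons on the opposite strand, so reads there cannot be told apart.

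**Figure D2:**
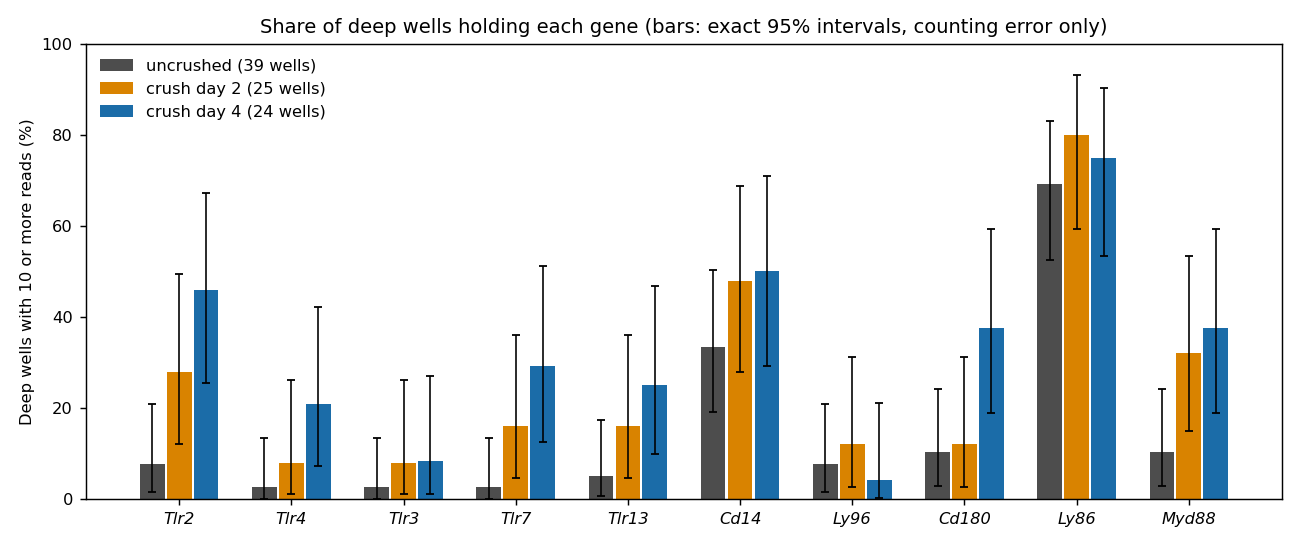
Share of deep wells holding each gene at 10 or more reads (%), by group, with exact 95% intervals that cover counting error only. Tlr2 goes from 7.69% to 28% and 45.8%, Ly86 stays between 69.2% and 80%, and Ly96 is lowest at day 4 with 4.17%.

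Neutrophil-rich wells held only some of the set. Tlr3, Tlr4, Tlr7, Ly96 and Cd180 were each held by 0 of the 9, which allows a share of up to 33.6%. Tlr2 was held by 4, Tlr13 by 3, and Cd14 and Myd88 by 6 each.

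A difference past 2-fold means 1 or more, or -1 or less, between group means of log2(FPKM + 1) in deep wells. It was read beside all genes that reached FPKM 1 in 5% or more of the deep wells of both groups together. Tlr3 and Tlr4 did not reach that level at day 2 against uncrushed retina, nor did Tlr3 at day 4. At day 2 the members past 2-fold were Tlr2, Cd14, Ly86 and Myd88, 4 of the 8 measured, all higher. Of 9716 genes, 13.8% were higher and 1.06% lower past 2-fold. In that order, these 4 members were 1.17, 0.70, 1.91 and 2.11 higher on plate 1. They were 0.22, 0.32, 0.11 and 0.41 higher on plate 2, and 1.87, 2.25, 1.69 and 2.31 on plate 3. Without wells of 3 or more neutrophil or rod markers they were 0.74, 0.99, 2.77 and 1.34 higher. At day 4 the members past 2-fold were Tlr2, Tlr4, Tlr7, Tlr13, Cd14, Cd180 and Myd88, 7 of the 9 measured, all higher. Of 11089 genes, 26.5% were higher and 0.712% lower. Day 4 was higher than day 2 past 2-fold for Tlr2, by 1.75, and Cd180, by 1.39, 2 of 10 members. Of 12615 genes, 12% were higher and 1.23% lower. On plates 1 to 3 the difference was 0.69, 4.60 and -2.40 for Tlr2 and 1.24, 2.58 and -1.10 for Cd180. The 3 comparisons share wells, and members that passed the filter through the group in which they were high had to differ. This applied to Tlr4 at day 4, which reached FPKM 1 in 2.56% of uncrushed and 20.8% of day 4 deep wells. It passed the filter only through day 4 and had to be higher there, so its place among the 7 is no support.

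**Figure D3:**
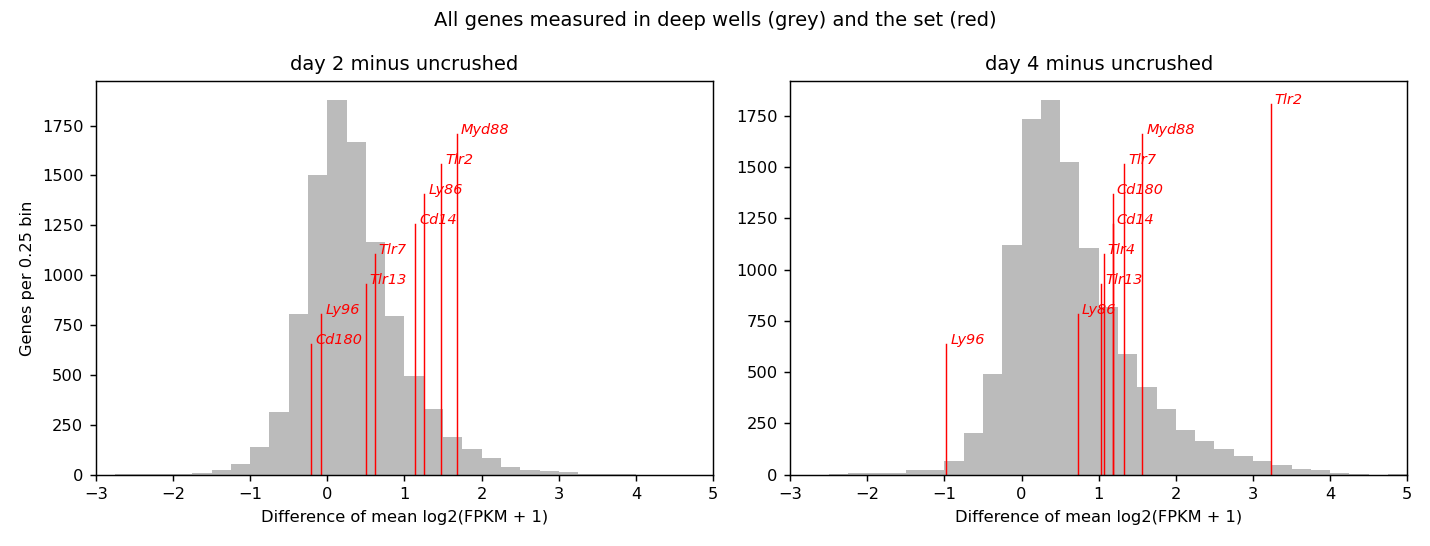
Histogram of the difference of mean log2(FPKM + 1) over all genes measured in deep wells (grey, genes per bin of 0.25) with each measured member as a red line, for day 2 (9716 genes) and day 4 (11089 genes) against uncrushed retina. The grey distributions have medians of 0.26 and 0.50, Tlr2 lies at 3.23 in the day 4 panel and Ly96 at -0.98.

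Most genes measured had a higher mean log2(FPKM + 1) after crush, 6849 of 9716 at day 2 and 9127 of 11089 at day 4. FPKM is scaled to the reads of each well, so this measures no rise in total RNA. Deep wells after crush also had reads of more genes, with medians of 1288, 1509 and 2253 when thinned to 50000 reads. The part of gene number in the differences was not tested. The median difference of all genes was 0.26 at day 2 and 0.50 at day 4, and 0.22 at day 4 against day 2, while measured members had medians of 0.88, 1.18 and 0.29. Relative to the median of all genes, the members past 2-fold were Tlr2 and Myd88 at day 2, by 1.21 and 1.42. At day 4 they were Tlr2 and Myd88, by 2.72 and 1.06, with Ly96 lower by -1.48. After thinning to 50000 reads, with 20 reads per 1000000 added before the logarithm, Tlr2 was the only member past 2-fold at day 4, by 2.23. It was 1 of 9 members measured, where 7.83% of all genes passed when thinned.

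The shares moved as those of most genes did. The share of deep wells was higher at day 2 than in uncrushed retina for 10 of 10 members and 70.5% of genes, and higher at day 4 for 9 of 10 members and 82.5% of genes. At day 4 against day 2 it was higher for 8 of 10 members, where 73.8% of genes had a higher share. The mean share over the 10 members was 15.1%, 26% and 33.3%. Over the genes measured between uncrushed retina and day 4, the mean share was 10.6% and 23.9%.

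**Figure D4:**
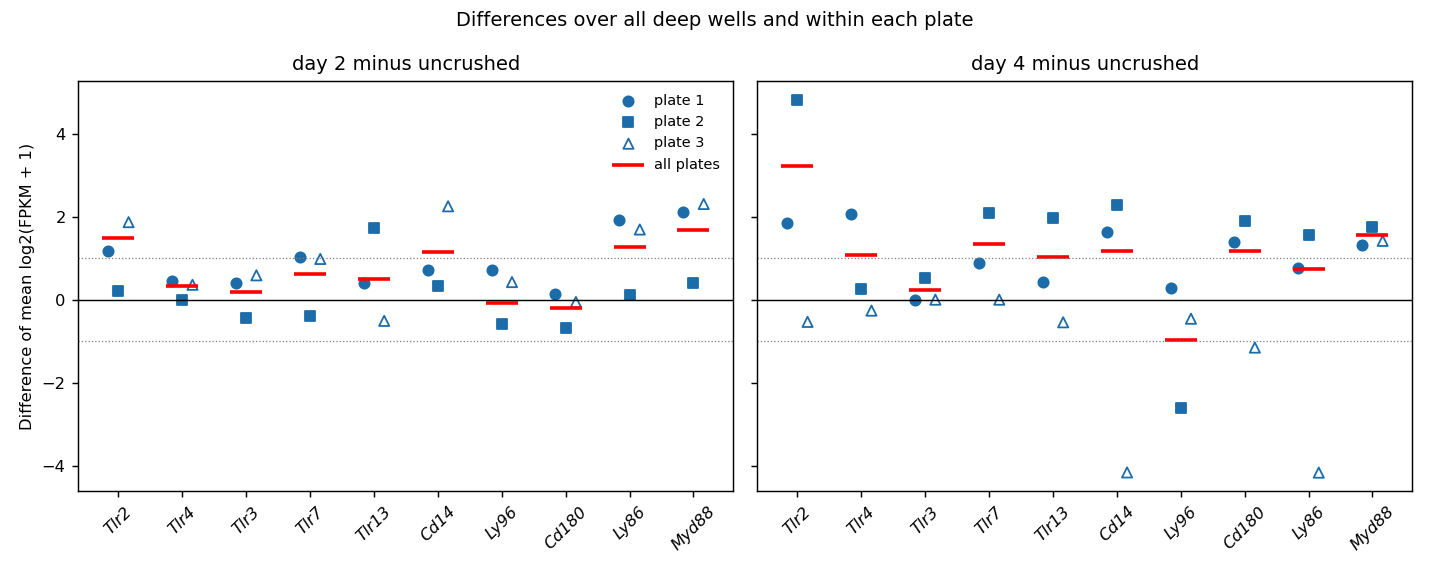
Difference of mean log2(FPKM + 1) in deep wells over all plates (red bar) and on each plate (symbols), for day 2 and day 4 against uncrushed retina; dotted lines mark 2-fold. Plate 3 has 2 deep wells at day 4 (open triangles), where Cd14 and Ly86 lie at -4.16 and -4.17, while Tlr2 is 4.82 on plate 2.

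At least 1 of the 5 receptors was held by 5 of 39 (12.8%, 4.30 to 27.4), 11 of 25 (44%, 24.4 to 65.1) and 14 of 24 deep wells (58.3%, 36.6 to 77.9). At least 3 receptors were held by 1, 2 and 7 wells. Within plates the shares with a receptor were 3 of 11, 6 of 11 and 7 of 12 on plate 1, and 1 of 15, 2 of 6 and 7 of 10 on plate 2. On plate 3 they were 1 of 13, 3 of 8 and 0 of 2. Wells with a receptor also had reads of more genes, with medians of 4566, 5616 and 8390 genes with any read against 2837, 3227 and 3193 in wells with no receptor. The part of gene number in the receptor counts was not tested.

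The median number of members held per well was 1, 2 and 2.5. At least 6 of the 10 members were held by 2 uncrushed, 1 day 2 and 8 day 4 deep wells. The 8 day 4 wells each held 10 or 11 of the 11 microglia markers and at most 3 neutrophil markers, and none was neutrophil-rich. They had 7285 to 10849 genes with a read. Of the remaining day 4 wells, 4 held no member, among them both deep wells of plate 3. The day 2 well held 8 members, all but Tlr7 and Tlr13.

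**Figure D5:**
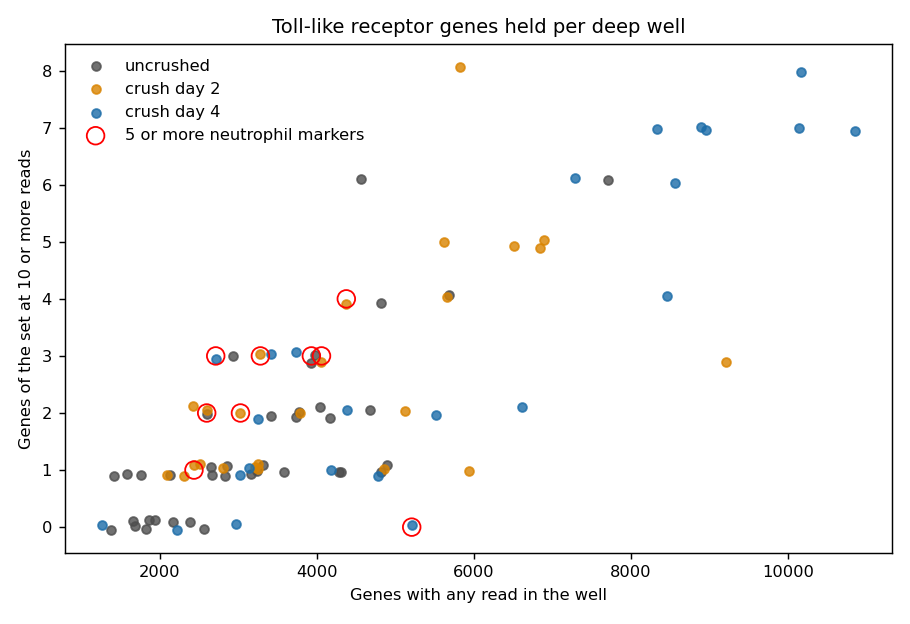
Number of the 10 members held at 10 or more reads (vertical axis, points shifted slightly) against the number of genes with any read in the same deep well (horizontal axis), coloured by group; red rings mark the 9 neutrophil-rich wells. Wells with 6 or more members have at least 4566 genes, and the 8 such wells of day 4 have 7285 to 10849.

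The proteins of the set act in complexes, so members held by the same well were counted. Cd180 was never held without its partner Ly86: 16 of 16 wells with Cd180 held both, in a population where 65 of 88 wells held Ly86. Tlr4 and its partner Ly96 were held together by 3 of the 8 wells with Tlr4, namely 0 of 1, 2 of 2 and 1 of 5 in the 3 groups. Cd14 was held by 7 of the 8 wells with Tlr4, and Myd88 by 4. Some pairs were counted after the values were seen. Tlr2 was held with Cd14 by 18 of its 21 wells and with Myd88 by 12, which included 8 of the 11 day 4 wells with Tlr2. Tlr7 was held with Myd88 by 7 of 12 wells and Tlr13 by 6 of 12. The part of gene number in the joint counts was not tested.

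Tnf, which encodes a cytokine induced through the pathway, was held by 9 day 4 deep wells, and its count was split by each member. Tnf was held by 9 of the 11 day 4 wells with Tlr2 and 0 of the 13 without, which allows a share of up to 24.7%. Day 4 wells with Cd14 held Tnf in 9 of 12 cases, and those without in 0 of 12, which allows up to 26.5%. All 7 day 4 wells with Tlr7 held Tnf, and 2 of 17 without did. The counts were 9 of 18 against 0 of 6 for Ly86, 7 of 9 against 2 of 15 for Cd180, 6 of 9 against 3 of 15 for Myd88 and 5 of 6 against 4 of 18 for Tlr13. They were 3 of 5 against 6 of 19 for Tlr4, 2 of 2 against 7 of 22 for Tlr3 and 1 of 1 against 8 of 23 for Ly96. Tnf was thus more frequent in the day 4 wells with a member for each of the 10. Those wells also had more genes with a read. The medians ran from 6947 against 2841 for Ly86 to 9513 against 3960 for Tlr13. The same split was not counted for genes in general, and the part of gene number in the Tnf counts was not tested. Gpr84, a receptor gene for medium-chain fatty acids named in the study's title, was held by 9 of the 11 day 4 wells with Tlr2 and 3 of the 13 without. Il1a, which encodes interleukin 1 alpha, was held by 8 and 3 of them, and Il1b, which encodes interleukin 1 beta, by 3 and 3. Reads were similar in both, with medians of 869271 and 743381, but genes were 8553 against 3411.

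In uncrushed retina Tnf was held by 2 of the 13 deep wells with Cd14 and 0 of the 26 without, which allows up to 13.2%. At day 2 it was held by 3 of 12 and 0 of 13. Il1a followed the same split at day 2, in 6 of 12 wells with Cd14 and 0 of 13 without. Wells with Cd14 also had more genes with a read, with medians of 3971 against 2652.5 in uncrushed retina. At day 2 these medians were 5633 against 3243.

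Over the 88 deep wells, the 2 genes most like Ly86 by Spearman rho among 766 candidates were Slc25a4 at 0.53, which encodes a mitochondrial ADP/ATP carrier, and Nme2 at 0.52, which encodes a nucleoside diphosphate kinase. No gene reached 0.5 with Cd14, the nearest being Klf2 at 0.48. The other 8 members were held by too few wells for such a comparison. These correlations share wells, plates and depth, and the rho of Ly86 itself with the number of genes per well was 0.32.

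Shallow wells gave little on the set. Of 15 uncrushed, 11 day 2 and 30 day 4 shallow wells, 3 at day 2 and 4 at day 4 held Ly86, and 1 uncrushed well of 3742 reads held Tlr2 at exactly 10 reads. No other member was held in them. There a read passes FPKM 1: Myd88 reached it in 7 of 15, 4 of 11 and 9 of 30 shallow wells, against 20.5%, 40% and 41.7% of deep wells. Over all wells at FPKM 1 or more, Tlr2 was found in 18.5%, 33.3% and 42.6%, Cd14 in 57.4%, 69.4% and 51.9%, and Ly86 in 98.1%, 91.7% and 94.4%.

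Other genes of the pathway were described from lists by role. As with the members, genes that passed the filter through the group in which they were high had to differ. Of 7 other Toll-like receptor genes, Tlr1 and Tlr6, the partners of TLR2, were measured at both days. Tlr1 was held by 2 of 39, 5 of 25 and 4 of 24 deep wells, and Tlr6 by 3, 4 and 6. Their day 4 differences, 0.89 for Tlr1 and 0.66 for Tlr6, did not pass 2-fold. Tlr12 was held by 2 uncrushed and 3 day 4 wells.

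Among 21 adaptors and kinases, 17 were measured at day 4 and 2 were higher past 2-fold, beside 26.5% of all genes. These were Tbk1, a kinase of interferon regulatory factors, at 2.00, and Irak1, a kinase that binds MyD88 complexes, at 1.06. The median of the list was 0.46, beside 0.50 over all genes. At day 2, 1 of 14 passed, beside 13.8% of all genes, namely Ripk1, a kinase of the TRIF branch, at 1.20. Ripk1 was held by 0 of 39, 5 of 25 and 4 of 24 wells, with a mean level of 0.008 in uncrushed retina. It thus passed the filter only through wells after crush and had to be higher there. Irf3 and Irf7, which switch on interferon genes, were 0.96 and 0.91 higher at day 2, and 0.40 and 0.81 without neutrophil-rich wells. Irf7 was 3.13 on plate 1, -0.25 on plate 2 and -0.99 on plate 3.

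Of 16 genes for folding, transport and processing of the receptors, 15 were measured at day 4, with 7 higher and 1 lower past 2-fold and a median of 0.75, beside 26.5% of all genes higher and 0.712% lower. Hsp90b1, the chaperone that folds most Toll-like receptors, was held by 10 of 39, 13 of 25 and 16 of 24 wells and was 1.80 higher at day 2 and 3.37 higher at day 4. Within plates its day 4 difference was 2.82, 5.67 and -1.25. Ctss, a lysosomal protease, was lower by -1.03 at day 4, from a level of 12.43 ± 2.67 in uncrushed retina, and by -0.73 without neutrophil-rich wells. Within plates Ctss was -0.86, -0.07 and -5.87, so the value past 2-fold rests on the 2 deep day 4 wells of plate 3. Ctsb and Ctsl, which also cut endosomal receptors, were 1.42 and 1.20 higher at day 4 but lower on plate 3, by -4.96 and -3.43, and Slc15a3, an endosomal peptide transporter, 1.27 higher.

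Of 16 inhibitors, 13 were measured at day 4 and 4 were higher past 2-fold, near the 26.5% of all genes, with a median of 0.41 beside 0.50. Nfkbia, which holds NF-kB in the cytoplasm, was 1.49 higher at day 2 and 1.91 at day 4, Zfp36 was 1.47 and 1.49 higher, and Dusp1 1.86 and 1.22 higher. Without neutrophil-rich wells the day 2 values of Nfkbia, Zfp36 and Dusp1 were 0.20, 0.32 and 0.38.

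Of 21 inducible target genes, 12 were measured at day 4. Of these, 9 were higher past 2-fold, beside 26.5% of all genes, with a list median of 1.75. Il1b, 1 of the 9 at 1.02, was 0.41 without neutrophil-rich wells. Ccl2, a monocyte chemoattractant, was held by 1 of 39 uncrushed and 12 of 24 day 4 wells and was 4.26 higher, Ccl4 was 3.97 higher and Tnf 2.52 higher. Within plates the list median was 1.57, 2.61 and -0.66. At day 2, 5 of 12 were higher and 1 lower past 2-fold, beside 13.8% and 1.06% of all genes, and the median was 0.59. Cxcl2, a neutrophil chemoattractant, and Il1b were 2.61 and 2.53 higher at day 2, and 0.19 and 0.17 without neutrophil-rich wells. Also higher past 2-fold were Isg15, Acod1 and Ccl4, by 2.24, 1.80 and 1.05. Without those wells they were 2.56, 0.07 and 0.30, so of the genes higher past 2-fold only Isg15 stayed so. Ccl3 was lower by -2.43 at day 2 and by -2.62 without those wells.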

How the data were processed

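The submitters' processing notes list Trim Galore 0.4.4, Trimmomatic 0.36, cutadapt 1.16, STAR 2.7.2b, featureCounts 1.6.1 and GRCm38.p6 (mm10). Per the labels' protocols, complementary DNA was made and amplified in the lysate of a sorted cell, then tagmented with the Nextera XT kit; no molecular identifiers are mentioned. The deposited values are FPKM. FPKM multiplied by gene length in kilobases summed to 1000000 per well, and the most frequent product above 0 was taken as 1 read; values within 0.001 of a whole number of reads were set to it. Only 40.9% of recovered values below 100 came within 0.01 of a whole number, so no count test was used.

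Deep wells had 50000 or more reads. Levels are means of log2(FPKM + 1). Alternatives changed the pseudocount, filter, wells, scaling, plates and read minimum. Leaving out neutrophil-rich wells or wells high in monocyte or perivascular macrophage markers, grouping by treatment tag and the pairs marked so were chosen after seeing the data. The members, lists and rules were chosen with earlier results of these data known. Named were all members, the 3 widest differences of each list at each day against uncrushed retina, Tnf, Il1a, Il1b and Gpr84, and up to 3 neighbours with rho of 0.5 or more for members held by at least 30% of deep wells. Klf2, Isg15 and Acod1 were named after their values were seen. The calculation of differences was checked on simulated counts with known fold changes, which is no test of the differences. Doublets were not called. Versions were matplotlib 3.10.9, scipy 1.17.1, pandas 2.3.3, numpy 2.4.6 and Python 3.11.15.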

Additional observations from a re-analysis of the deposited data

How the results depend on the processing

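Counts of members past 2-fold depended on the settings. So did the share of all genes measured past 2-fold in either direction, which is given in brackets. At day 2 against uncrushed retina the count of 4 (14.9%) became 1 with a pseudocount of 10 (3.66%). The count was also 1 over all wells (8.85%) or thinned to 50000 reads (3.60%). It became 2 without wells of 3 or more neutrophil or rod markers (20.57%), without neutrophil-rich wells (17.79%) or centred on all genes (11.04%). The count was also 2 without wells of 1000 or more reads per 1000000 of monocyte or perivascular macrophage markers (18.96%). At day 4 the count of 7 (27.2%) became 1 with a pseudocount of 10 (7.76%), over all wells (11.2%) or thinned (7.83%), in each case Tlr2. It became 3 centred (16.9%) or without plate 2 (20.6%). At day 4 against day 2 the count of 2 (13.2%) became 5 with a pseudocount of 0.1 (30.97%) or without plate 1 (24.47%). The count was also 5 without neutrophil-rich wells (14.22%) or by the ratio of mean FPKM (40.53%). It became 4 without wells of 3 or more neutrophil or rod markers (13.53%), without plate 3 (17.17%) or without wells whose title and tag differ (17.37%). It became 6 without wells of 1000 or more reads per 1000000 of monocyte or perivascular macrophage markers (13.97%). It became 1 with a pseudocount of 10 (2.85%) or thinned (3.42%), and 0 over all wells (5.92%). The mean share of members in uncrushed wells, 15.1%, was 30.5% at 1 or more reads, 13.1% at 100 or more, 24.6% at FPKM 1 in deep or in all wells, 14.1% without wells of 3 or more neutrophil or rod markers and 17.7% thinned. At day 2, 26% became 40.4% at 1 or more reads. The median number of members per well became 3, 4 and 5 in the 3 groups at 1 or more reads, and 2 in uncrushed retina and 3 at day 2 at FPKM 1 in deep or in all wells. The causes were not tested. The 13 member differences past 2-fold had 182 alternative values, which all kept their direction and of which 115 stayed past 2-fold. The 13 were picked for passing 2-fold and the alternatives reuse most of the same wells. Keeping direction is therefore no independent check. Within plate 3 alone, the day 4 differences of Tlr2, Tlr4, Tlr13, Cd14 and Cd180 turned negative, as given above. No paired analysis was possible because replicate numbers only name wells in accession order. Shallow wells and the 2 deep day 4 wells of plate 3 limit what can be seen there.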
